A study of Mus musculus with 21 samples.

Results

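The 40 genes described here encode the proteins that copy chromosomal DNA in S phase and a few regulators of S phase entry, and they were taken by name from a deposited expression table of 13202 genes in 21 libraries of mouse CD8 T cell cultures. All 40 were in the table, and all 40 were among the 12630 genes tested. CD8 T cells were obtained by negative selection from the spleen and the inguinal lymph nodes. They were stimulated for 48 h, kept in medium with interleukin 2 and harvested on day 8. Acute cultures received no further stimulus, and chronic cultures were stimulated again every 48 h. In the polyclonal experiment, C57BL/6 cells were activated with plate-bound anti-CD3 and anti-CD28, and the chronic cells received plate-bound anti-CD3 again (polyclonal acute and polyclonal chronic). In the OT-I experiment, cells with a transgenic receptor for the ovalbumin peptide SIINFEKL were activated with that peptide and then grown together with B16-F10 mouse melanoma cells pretreated with interferon-γ, either with more peptide, called OT-I chronic, or with none, called OT-I acute. In the remaining experiment, C57BL/6 cells were cultured acutely or chronically with vehicle, or chronically in 10 mM of the thiol antioxidant N-acetylcysteine (NAC) from 48 h onwards, which gives the groups vehicle acute, vehicle chronic and NAC chronic. Each of the 7 groups had 3 libraries. The labels do not say whether these came from separate cultures or animals, so the p-values measure the spread between libraries, which may be technical.

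DNA replication starts from origins at which the origin recognition complex, CDC6 and CDT1 load the ring-shaped MCM2-7 helicase in G1. In S phase the helicase is activated by CDC45 and the GINS complex, primase and DNA polymerase alpha lay down primers, and polymerases delta and epsilon extend them on the sliding clamp PCNA, which the RFC complex loads. Many of these genes are switched on at the G1/S border by E2F transcription factors, and activated T cells pass through this programme repeatedly as they expand.

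Because E2F sites are the best known shared element of this gene group, the promoters were searched for them. RefSeq promoter windows of the mouse build GRCm38.p6 (250 bases before to 50 after the start) were at hand for 32 of the 40 members. An E2F motif was counted where TTTCCCGC, TTTCGCGC, TTTGCCGC or TTTGGCGC stood on either strand. It was present in 13 of the 32 (40.6%), against 471 of 10178 genes of the expression table with a window (4.6%) and 704 of all 27025 genes with a window (2.6%). A match is a description of the letters and not evidence of a bound factor. The stretches below show the matches nearest the 5′ end of the window, read 5′ to 3′ on the strand of the gene. They cover 7 of the 13 members with a match, each described library by library or as a subunit of the helicase. Capitals mark the bases of a match, and a match on the opposite strand reads as its reverse complement.
Orc1: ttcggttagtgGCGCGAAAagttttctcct
Cdc6: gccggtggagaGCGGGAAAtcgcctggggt
Mcm5: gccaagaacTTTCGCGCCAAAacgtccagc
Mcm6: gcgtatgctTTTGGCGCGAAAagtgcgtgc
Rfc3: gcacgcTTTCGCGCtcGCGGGAAAactcta
Pola1: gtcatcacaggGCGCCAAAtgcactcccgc
Uhrf1: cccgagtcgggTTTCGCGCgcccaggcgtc
The stretches lie at chr4:108579416-108579445 on the plus strand (Orc1), chr11:98908002-98908031 plus (Cdc6), chr8:75109347-75109376 plus (Mcm5), chr1:128359795-128359824 minus (Mcm6), chr5:151651195-151651224 minus (Rfc3), chrX:93632275-93632304 minus (Pola1) and chr17:56304117-56304146 plus (Uhrf1). In Mcm5 and Mcm6, a pair of matches on opposite strands overlapped into 1 run of 12 bases. In Rfc3 a pair of matches was separated by 2 bases and spanned the start site. Not shown are a further Mcm6 match nearer its start site, the Gins3 match before its start site and the Mcm7 matches on both sides of its own. Also not shown are the matches of Mcm3, Cdt1, Pold1 and Lig1, which lie after their start sites.

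Levels are given as RPKM, reads scaled to gene length and to the library's reads in genes, which allows levels of different genes to be compared per length. The reads in genes ranged from 5347355 to 25218890 per library, and a member had between 55 and 9224 reads in a library. Libraries of a group agreed closely for the members, with a median coefficient of variation of 3.97% and a highest one of 17.3% (Gins1 in OT-I acute). The low genes of polyclonal acute 2, polyclonal chronic 2 and OT-I acute 3 lay above those of their groups, and the counts of members called without these 3 libraries are given where they changed. Markers of other cells differed between groups. The summed RPKM of 12 melanocyte genes was 7970 to 8269 in OT-I acute and 4655 to 4781 in OT-I chronic. It was 34.1 to 81.4 in polyclonal acute, 50.3 to 72.5 in polyclonal chronic and 1.54 to 11.2 in the vehicle and NAC groups. In polyclonal chronic libraries, the defining CD8 genes Cd8a and Cd8b1 averaged 8.48 and 23.1 RPKM against 101 and 267 in polyclonal acute. Of the other 5 genes of the CD8 T cell list, Cd3e and Cd3d were lower, Cd5 (142 against 51.8 RPKM) and Cd2 (404 against 302) were higher and Cd3g was not called, and the list summed to 1381 to 1571 RPKM against 1828 to 2009. Cd4 averaged 312 RPKM against 67.5, with 3 of the 4 CD4 T cell genes higher. The NK cell list summed to 21.2 to 24.1 RPKM in acute and 0.747 to 2.45 in chronic libraries, with Klrb1c lower and Ncr1 not called, and the myeloid list summed to 17.3 to 25.4 and 10.2 to 13.9 RPKM, with 1 gene higher and 2 lower of 4. The summed level of 7 B cell genes was 215.6 to 236 there against 3.40 to 15.9 in polyclonal acute, with all 7 higher.

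Vehicle acute cells had the highest mean level of 39 of the 40 members. The exception was Rfc3, a subunit of the clamp loader, which was highest in polyclonal chronic cells. OT-I acute cells had the lowest mean of 29 members. The median member stood at 51.2 RPKM in vehicle acute, 33.3 in polyclonal acute, 30.9 in vehicle chronic, 30.3 in NAC chronic, 29.7 in OT-I chronic, 26.4 in polyclonal chronic and 23.8 in OT-I acute. Within a group the levels spanned a wide range, from Ccne2, which encodes cyclin E2 and was the lowest member in every group, to Rrm2, the small subunit of ribonucleotide reductase, which was the highest in 5 of the 7 groups. Mcm2 was the highest in OT-I acute and Pcna in NAC chronic.

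**Figure D1:**
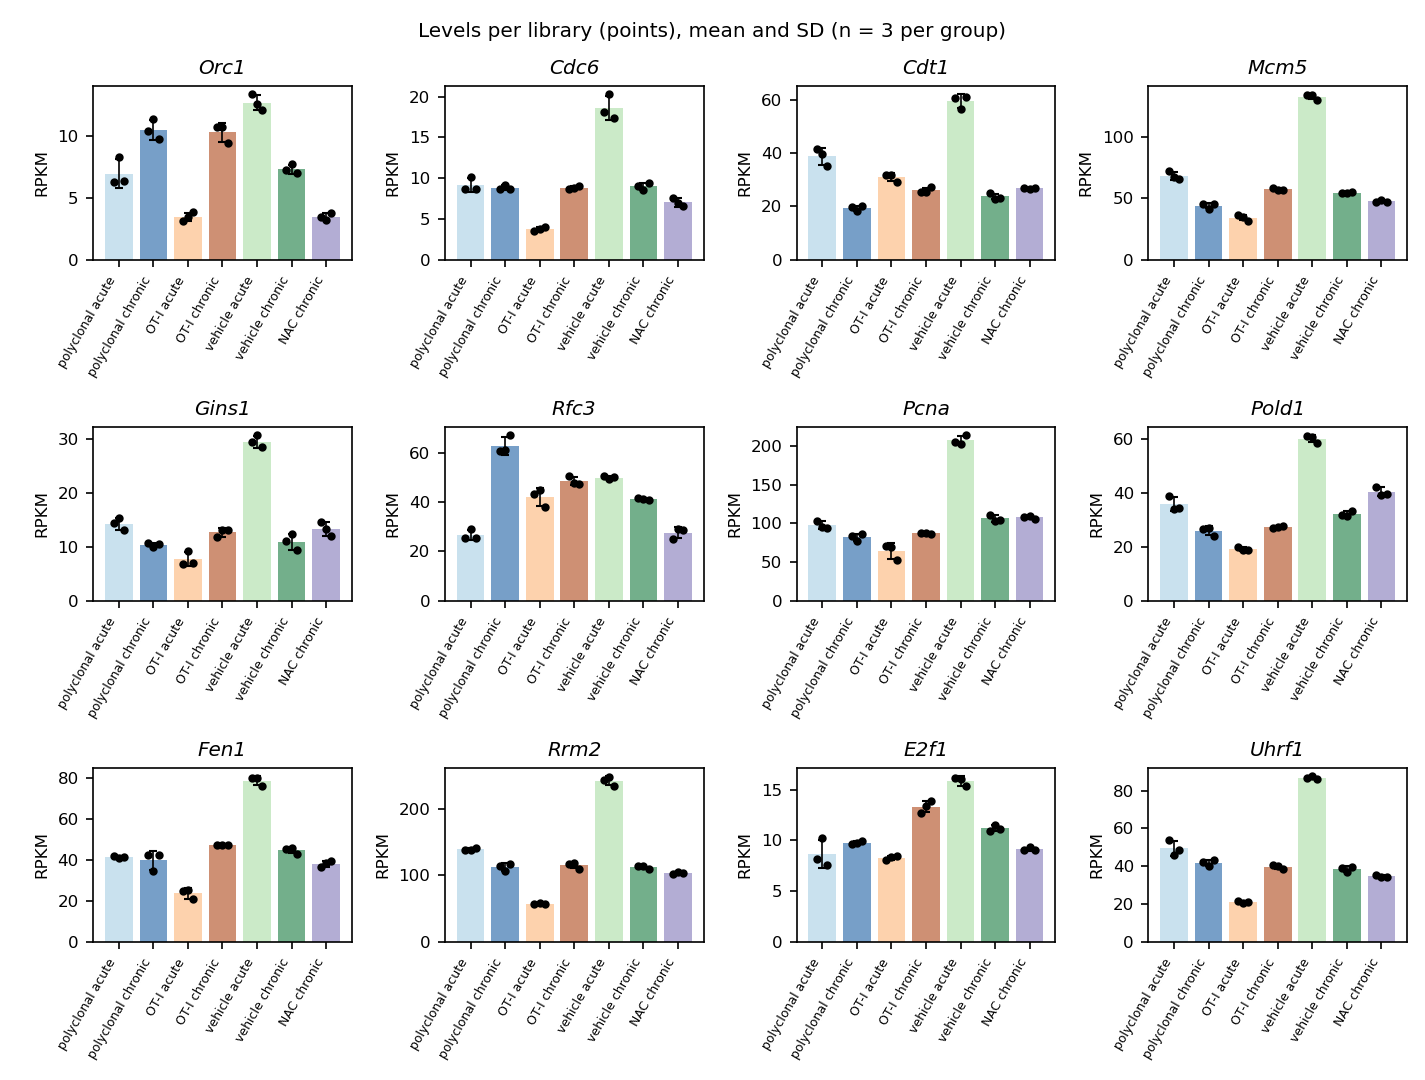
RPKM (y axis, linear) of 12 replication genes in the 7 groups (x axis), with 1 point per library, bars for the mean and error bars for the SD (n = 3). Vehicle acute is the highest group for all of them except Rfc3, which peaks in polyclonal chronic libraries at 60.5 to 67.0 RPKM.

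Summed over the 40 genes, 0.718% ± 0.0075 (SD, n = 3) of the reads in genes came from the members in vehicle acute. The share was 0.434% ± 0.0082 in polyclonal acute, 0.388% ± 0.0052 in OT-I chronic, 0.376% ± 0.0015 in vehicle chronic, 0.372% ± 0.0021 in NAC chronic, 0.358% ± 0.0103 in polyclonal chronic and 0.288% ± 0.0078 in OT-I acute. The 3 acute groups were therefore further apart from each other than the 4 chronic groups were. In these bulk samples, fewer cells in S phase or of a given type and less RNA per cell cannot be told apart.

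**Figure D2:**
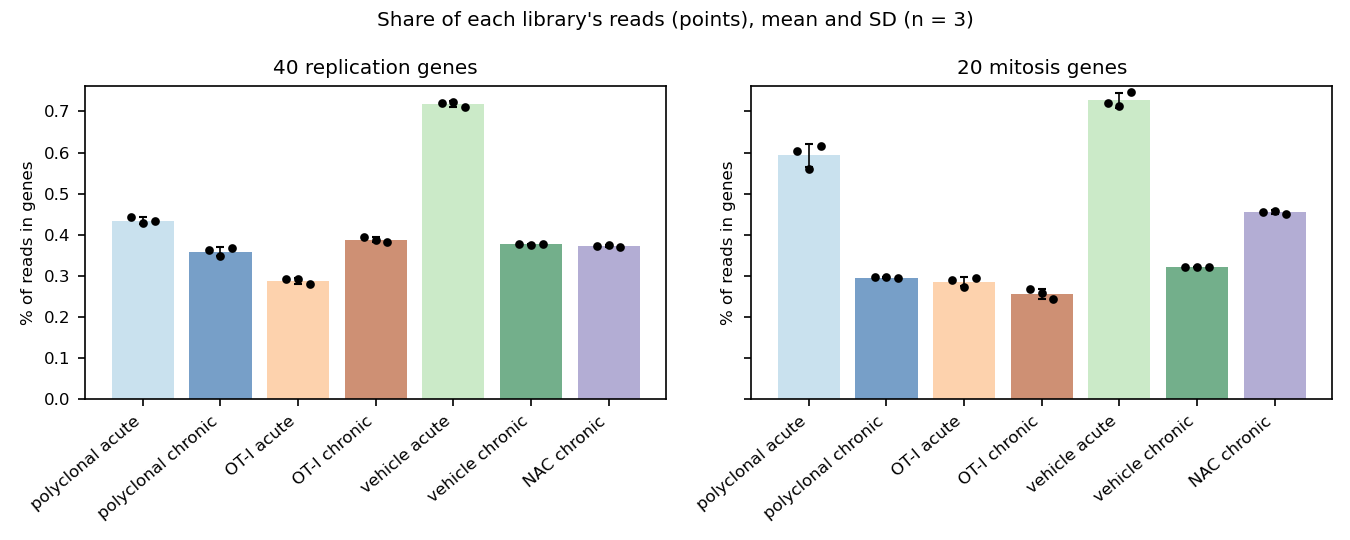
Percentage of each library's reads in genes (y axis) that fell on the 40 replication genes (left) and on 20 mitosis genes (right) in the 7 groups, with points for libraries and bars with error bars for mean and SD (n = 3). The replication share is highest in vehicle acute (0.718%) and lowest in OT-I acute (0.288%), and the NAC chronic bar lies at the vehicle chronic level on the left and above it on the right.

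Polyclonal chronic cells were compared with polyclonal acute cells to ask how repeated anti-CD3 altered the members. Of the 40, 27 were lower, 4 were higher and 9 were not called. Over all 12630 genes tested, 35.5% were called lower and 28.6% higher. A call is an adjusted p under 0.05 in limma, fitted on log2(RPKM + 1) over all libraries with adjustment over all genes, and every log2 change below is on that scale. The median log2 change of the members was -0.25, against -0.08 over all genes tested. The libraries of 29 of the 40 members did not overlap between the groups, against 59.6% of all genes. When only the polyclonal libraries entered the fit, 26 members were lower and 3 higher. Without the 3 libraries with raised low genes, 27 were lower and 5 higher, Ccne2 being the addition.

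Among the licensing factors, Cdt1, which loads the helicase together with CDC6, stood at 41.6, 39.4 and 35.3 RPKM in the acute libraries and at 19.6, 18.1 and 19.98 in the chronic ones. The groups did not overlap, and Cdt1 had the largest fall of the members here, with a log2 change of -0.97 ± 0.058 (SE; limma adjusted p = 7e-12). Orc1, the largest subunit of the origin recognition complex, went the other way. It stood at 6.25, 8.32 and 6.35 RPKM in acute and 10.4, 11.4 and 9.73 in chronic libraries, without overlap (log2 change 0.54 ± 0.091, limma adjusted p = 3.1e-05). Orc6 was also higher, with a log2 change of 0.23 (limma adjusted p = 0.0054). Cdc6, which docks on the origin recognition complex before the helicase is loaded, was not called, at 8.70, 10.2 and 8.68 RPKM in acute and 8.67, 9.18 and 8.64 in chronic libraries.

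Of the 6 helicase genes Mcm2 to Mcm7, 5 were lower, and Mcm6 was not called (log2 change 0.06, limma adjusted p = 0.2). Mcm2 stood at 56.5, 51.2 and 51.8 RPKM in acute and 41.7, 37.8 and 41.5 in chronic libraries, which did not overlap. Mcm5 changed most of the 6, by -0.63 on the log2 scale (SE 0.046, limma adjusted p = 2e-10). Of the helicase activation genes, Mcm10 and 3 of the 4 GINS genes were lower. Gins1 fell from 14.4, 15.3 and 13.1 RPKM to 10.7, 10.0 and 10.5, again without overlap. Gins2 was not called, at 17.97, 21.6 and 17.3 RPKM in acute and 19.9, 17.8 and 19.0 in chronic libraries, and neither was Cdc45. The call of Mcm10 was lost when the polyclonal libraries were fitted alone (limma adjusted p = 0.1), and without acute replicate 1 or 2 or chronic replicate 1 or 3 (limma adjusted p = 0.079 to 0.14).

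The clamp loader showed the widest spread of any role. Rfc3 stood at 25.3, 29.1 and 25.3 RPKM in acute and at 60.5, 60.8 and 67.0 in chronic libraries. The chronic libraries all lay far above the acute ones, with a mean 2.36-fold higher (log2 change 1.21 ± 0.066, limma adjusted p = 2e-12), and Rfc3 was the 1 member called with a change of 2-fold or more on the log2(RPKM + 1) scale, against 7.36% of all genes called that far higher and 5.73% that far lower. Its partner subunits did not follow. Rfc5 stood at 37.0, 34.1 and 34.5 RPKM in acute and 26.6, 27.8 and 26.1 in chronic libraries, Rfc1 was lower too, and Rfc2 and Rfc4 were not called. Pcna, the clamp that these proteins load, stood at 103, 95.1 and 93.9 RPKM in acute and 83.3, 76.5 and 85.5 in chronic libraries, without overlap (log2 change -0.25, limma adjusted p = 0.0081). Its call was lost after libraries were rescaled to a common median (limma adjusted p = 0.054). Pcna and Tyms have annotated pseudogenes elsewhere in the genome, with which reads may be shared. Whether counting used strand is not stated, and 9 members overlap another gene of the table on the opposite strand (Orc6, Mcm7, Gins2, Rfc2, Rfc4, Rfc5, Fen1, Tk1 and Ccne2), so their levels are less certain.

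All 6 polymerase and primase genes and all 4 nucleotide supply genes were lower. Pola1, the catalytic subunit of polymerase alpha, stood at 18.3, 20.7 and 21.6 RPKM in acute and 13.7, 14.3 and 13.5 in chronic libraries. Pold1, the catalytic subunit of polymerase delta, stood at 38.9, 33.9 and 34.5 RPKM in acute and 26.6, 27.0 and 24.0 in chronic libraries. Neither gene's groups overlapped. Rrm2 and Rrm1, whose products form ribonucleotide reductase and make deoxynucleotides, changed less, with log2 changes of -0.31 and -0.17 (limma adjusted p = 2.4e-06 and 0.00067). Rrm2 stood at 138.9, 139.1 and 141.9 RPKM in acute against 115, 107 and 118 in chronic libraries. Rpa1, a subunit of the single-strand binding protein, had the second largest fall after Cdt1, from 79.0, 74.2 and 77.0 RPKM to 48.9, 46.3 and 50.1 (log2 change -0.65 ± 0.041, limma adjusted p = 1.8e-11). The flap nuclease gene Fen1, which acts on Okazaki fragments, was not called.

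The G1/S regulators did not move as a group. Uhrf1, which guides the methylation of newly copied DNA, was lower (log2 change -0.23, limma adjusted p = 0.00035). E2f1 was called higher, but its libraries overlapped, at 8.21, 10.3 and 7.53 RPKM in acute and 9.64, 9.72 and 9.99 in chronic. It lost its call with the polyclonal libraries fitted alone (limma adjusted p = 0.2) and without any single polyclonal library other than acute replicate 2. The cyclin E genes Ccne1 and Ccne2, with log2 changes of -0.13 and 0.17, were not called, yet each passed when certain single libraries were left out. Those were acute replicate 3 or chronic replicate 1 for Ccne1 (log2 change -0.16 and -0.17) and acute or chronic replicate 2 for Ccne2 (log2 change 0.22 in both). Cdc45 passed without acute replicate 1 (log2 change -0.18). The changes in CD8, CD4, B cell, NK cell and myeloid genes given above moved with this comparison, and their part in these results was not tested.

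**Figure D3:**
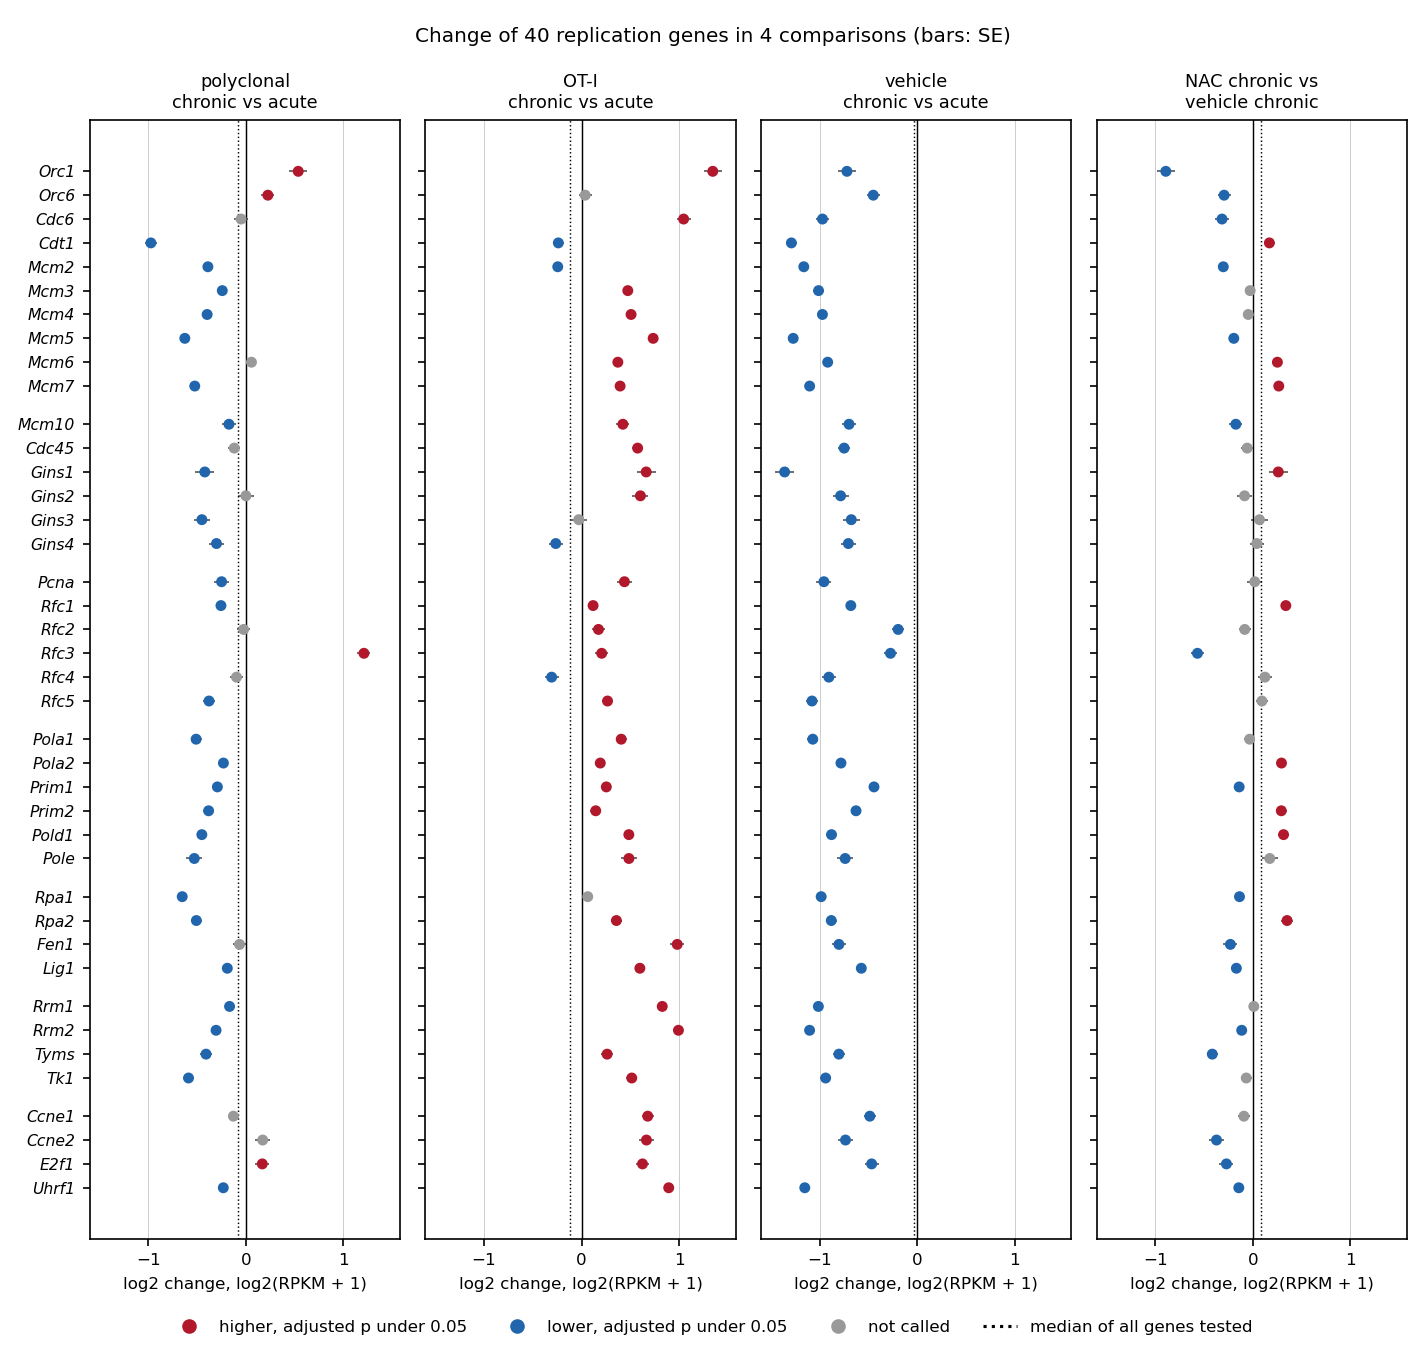
Log2 change (x axis, on the log2(RPKM + 1) scale) of the 40 members (rows, by role) in 4 comparisons, with bars for the SE, colours for the call and a dotted line for the median of all genes tested. In the vehicle panel every point lies left of 0, in the OT-I panel 33 points are called to the right, and in the polyclonal panel Rfc3 stands alone at 1.21.

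OT-I cells kept with melanoma cells and peptide were compared with OT-I cells kept with melanoma cells alone. Here 33 of the 40 members were higher, 4 were lower and 3 were not called, while 22.4% of all genes tested were higher and 36.2% lower. The median log2 change of the members was 0.43, and that of all genes was -0.12. The members that were lower were Cdt1, Mcm2, Gins4 and Rfc4, and those not called were Orc6, Gins3 and Rpa1. Of the 40, 34 had libraries that did not overlap between the groups, against 65.1% of all genes. With only the OT-I libraries in the fit, 30 were higher and 4 lower, and without the 3 libraries with raised low genes 32 were higher (Rfc2 was not called) and 4 lower. At 2-fold or more on the log2(RPKM + 1) scale, 2 members were called higher and 0 lower, against 2.91% and 2.79% of all genes.

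Licensing factors held the largest changes. Orc1 stood at 3.11, 3.42 and 3.82 RPKM in OT-I acute and at 10.8, 10.7 and 9.44 in OT-I chronic libraries, a mean 2.99-fold higher (log2 change 1.35 ± 0.091, limma adjusted p = 1.6e-10). Cdc6 stood at 3.55, 3.75 and 4.004 RPKM in acute and 8.67, 8.84 and 9.02 in chronic libraries (log2 change 1.05 ± 0.071, limma adjusted p = 1.7e-10). In both genes every chronic library lay above every acute one. Cdt1, in contrast, was lower, at 31.7, 31.7 and 29.1 RPKM in acute and 25.5, 25.3 and 27.2 in chronic libraries (log2 change -0.24, limma adjusted p = 0.0015). Mcm2 went from 69.3, 68.5 and 67.2 to 58.6, 57.5 and 56.5 RPKM, whereas Mcm3 to Mcm7 were all higher, with Mcm5 the furthest at a log2 change of 0.73.

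The nucleotide supply genes were all 4 higher. Rrm2 stood at 57.5, 58.3 and 56.4 RPKM in acute and 117, 119 and 110 in chronic libraries, a mean 2.01-fold higher (log2 change 0.99 ± 0.042, limma adjusted p = 1.6e-13). Rrm1 stood at 38.2, 38.7 and 38.7 RPKM in acute and 69.5, 69.3 and 68.5 in chronic libraries. Both subunits of the enzyme thus rose by a similar amount, with a log2 change of 0.83 ± 0.038 for Rrm1. Fen1 rose from 24.6, 25.4 and 20.6 to 47.4, 47.3 and 47.0 RPKM (2.01-fold, limma adjusted p = 4.8e-10), while Rpa1 was not called, at 61.2, 62.6 and 56.6 against 62.4, 63.3 and 62.8 RPKM.

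All 6 polymerase and primase genes were higher, and 5 of them with the OT-I libraries fitted alone, where Prim2 was not called (limma adjusted p = 0.092). Pola1 rose from 10.6, 9.89 and 11.02 to 15.1, 13.9 and 13.8 RPKM, and Pold1 from 20.01, 18.7 and 18.9 to 26.8, 27.3 and 27.7. All 4 G1/S members were higher as well, and their libraries did not overlap. Uhrf1 stood at 21.5, 20.3 and 20.9 RPKM in acute and 40.5, 40.02 and 38.5 in chronic libraries. E2f1, the transcription factor, stood at 8.07, 8.34 and 8.44 RPKM in acute and 12.7, 13.4 and 13.9 in chronic libraries. Ccne1 stood at 22.2, 23.7 and 20.6 RPKM in acute and 35.7, 35.7 and 36.6 in chronic libraries, and Ccne2 rose by 0.67 on the log2 scale.

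The clamp and its loader changed least, with a median log2 change of 0.19 over the 6 genes. Pcna stood at 70.7, 69.9 and 52.6 RPKM in acute and 87.2, 87.2 and 86.5 in chronic libraries (log2 change 0.44, limma adjusted p = 6.5e-05), without overlap. Rfc5 was higher by 0.27 on the log2 scale and Rfc3 by 0.21. The helicase activation genes Gins1 and Gins2 rose by 0.66 and 0.60 on the log2 scale, from 6.90, 9.24 and 6.97 to 11.8, 13.1 and 13.2 RPKM for Gins1. The calls of Rfc1, Rfc2, Rfc3 and Prim2 (log2 changes of 0.12 to 0.21) were each lost without certain single libraries: OT-I acute replicate 2 or chronic replicate 1 or 2 for Rfc1 (limma adjusted p = 0.073 to 0.11), acute replicate 1 or 3 or chronic replicate 3 for Rfc2 (0.068 to 0.17), acute replicate 3 or chronic replicate 1 for Rfc3 (0.081 and 0.053), and acute replicate 1 or 2 or chronic replicate 1 for Prim2 (0.065 to 0.15). Rfc1 and Rfc2 were also not called with the OT-I libraries fitted alone (limma adjusted p = 0.104 and 0.102). With libraries rescaled to a common median, Cdt1 and Gins4 were no longer called lower (limma adjusted p = 0.076 and 0.067).

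The melanocyte genes moved with this comparison. Of the 12, 9 were lower in OT-I chronic libraries, with a median log2 change of -1.01, and none of the 12 was under 1 RPKM in either group. How much of each member's RNA came from melanoma cells was not tested. The B cell list also moved, with a summed level of 5.20 to 11.9 RPKM in acute and 45.3 to 49.1 in chronic libraries, and 6 of its 7 genes were higher. The NK cell list went from 1.64 to 3.32 RPKM to 10.7 to 12.6, with both genes higher, and the myeloid list from 2.72 to 6.76 RPKM to 16.3 to 17.9, with 1 of 4 genes higher (Mpeg1, at 1.96 and 15.6 RPKM). The CD8 T cell list summed to 1026 to 1293 RPKM in acute and 878.4 to 899.6 in chronic libraries, with 5 genes lower and 1 higher, and the CD4 T cell list to 36.7 to 41.5 and 23.4 to 24.6. The part of these lists was not tested.

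In the vehicle experiment all 40 members were lower in chronic than in acute cells, while 34.4% of all genes tested were lower and 24.5% higher. The median log2 change was -0.84, and that of all genes was -0.03. In all 40 the chronic libraries lay below the acute ones without overlap, and 73.1% of all genes had no overlap in either direction. Of the members, 11 were called lower by 2-fold or more on the log2(RPKM + 1) scale, against 4.71% of all genes, and 5.9% of all genes were that far higher. The smallest falls were those of Rfc2 and Rfc3 (log2 changes of -0.20 and -0.27, limma adjusted p = 0.012 and 0.0014), and that of Rfc2 was not called after rescaling to a common median (limma adjusted p = 0.063).

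Gins1 fell furthest, from 29.4, 30.8 and 28.5 RPKM in vehicle acute to 11.1, 12.4 and 9.42 in vehicle chronic libraries (log2 change -1.36 ± 0.097, limma adjusted p = 1.8e-10). Cdt1 followed, from 60.6, 56.3 and 61.1 to 24.9, 22.9 and 23.3 RPKM (log2 change -1.29 ± 0.058, limma adjusted p = 9e-14). Mcm2 fell from 106, 99.9 and 97.3 to 43.1, 45.1 and 45.3 RPKM, and the 6 MCM2-7 genes had log2 changes of -0.92 to -1.27. The licensing and nucleotide supply genes had the lowest role medians, at -0.99 and -0.98. Rrm2, the most abundant member, stood at 244, 250 and 236 RPKM in acute and 114, 114 and 110 in chronic libraries. Rrm1 fell from 127, 126 and 123 to 61.5, 61.4 and 62.2 RPKM. The chronic means of Rrm2 and Rrm1 were 46.3% and 49.1% of the acute ones.

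Pcna fell from 205, 203 and 214 to 111, 104 and 104 RPKM, and its loader subunit Rfc5 from 52.3, 54.6 and 50.2 to 22.9, 24.0 and 25.9. Pola1 fell from 26.3, 25.1 and 27.0 to 11.6, 12.1 and 12.01 RPKM, and Rpa1 from 114, 114 and 117 to 58.6, 57.5 and 57.1. The libraries of these genes were well apart. Orc1, which had been higher in both other chronic groups, was lower here, at 13.4, 12.6 and 12.2 RPKM in acute and 7.26, 7.72 and 6.98 in chronic libraries. Cdc6 fell from 18.2, 20.3 and 17.4 to 9.02, 8.502 and 9.46 RPKM and Uhrf1 from 86.8, 87.6 and 86.0 to 39.2, 36.8 and 39.5. E2f1 and Ccne1 had smaller changes, of -0.47 and -0.49. The melanocyte and B cell lists summed to at most 11.2 and 6.32 RPKM in the vehicle groups. The CD8 T cell list summed to 1475 to 1533 RPKM in acute and 1818 to 1831 in chronic libraries. In it 4 genes were higher, among them Cd8a (87.1 and 145 RPKM), and 2 lower, Cd8b1 (178.5 and 88.8) and Cd2 (294 and 206). The CD4 T cell list summed to 33.8 to 34.7 and 19.4 to 22.4 RPKM, with 2 of 4 genes lower and 1 higher (Foxp3, at 0.279 and 0.663). The myeloid list summed to 2.53 to 3.76 and 8.94 to 9.64 RPKM, with 2 of 4 higher (Itgax at 2.53 and 7.52, Itgam at 0.653 and 1.79). The NK cell list summed to 8.51 to 8.96 and 10.6 to 11.1 RPKM, with neither gene called. The part of these lists in the result was not tested.

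The effects of chronic stimulation in the 3 experiments were then compared directly, by testing the difference of the chronic against acute changes in the same limma fit. The OT-I experiment differs from the polyclonal one in stimulus, cells and culture together, and from the vehicle one at least in cells and culture. The polyclonal and vehicle experiments both used C57BL/6 cells but were separate experiments. A difference between experiments therefore cannot be assigned to 1 factor. Each change is also set against its own acute group, and the acute groups differed in level. The differences below share libraries with each other. The OT-I change was above the vehicle change for all 40 members, with a median difference of 1.26 in log2 change, where 27.4% of all genes were above and 31.1% below. The OT-I change was above the polyclonal change for 34 members and below it for 1, with a median difference of 0.71, against 26.6% and 29.2% of all genes. The vehicle change was below the polyclonal change for 36 members, with a median difference of -0.60, against 27.3% of all genes below and 25.1% above. For the other 4 (Gins3, Rfc2, Prim1 and Pole) that difference was not called, although Rfc2 passed without polyclonal chronic replicate 2 (-0.22) and Prim1 without polyclonal acute replicate 2 (-0.19). Without the 3 libraries with raised low genes 37 members were below. Differences of 2-fold or more were called for 29 members above (OT-I against vehicle; 6.48% of all genes above and 8.25% below), for 8 above and 1 below (OT-I against polyclonal; 5.46% and 8.84%) and for 2 below (vehicle against polyclonal; 6.56% below and 5.8% above).

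The 1 member below in the OT-I experiment was Rfc3, with a difference of -1.004 ± 0.094 in log2 change (limma adjusted p = 1.6e-08). With the replicate number as a block, Rfc4 joined it (difference -0.21, limma adjusted p = 0.034), making 2 members below. Rfc4 did so too without polyclonal chronic replicate 2, and Rfc4 and Orc6 both did without OT-I acute replicate 3 or without the 3 libraries with raised low genes, which makes 3. For Rrm2 the OT-I change exceeded the polyclonal one by 1.30 ± 0.060 and the vehicle one by 2.10 ± 0.060 (limma adjusted p = 3.2e-13 and 3.5e-16). For Orc1 the corresponding differences were 0.81 ± 0.13 and 2.07 ± 0.13 (limma adjusted p = 2.2e-05 and 3.6e-11). Counted gene by gene, 22 members were lower in polyclonal chronic, higher in OT-I chronic and lower in vehicle chronic cells, each against its own acute group. This pattern was found in 386 of all 12630 genes (3.06%). The 22 included Mcm3, Mcm4, Mcm5, Mcm7, Pcna, all 6 polymerase and primase genes and all 4 nucleotide supply genes.

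NAC chronic cells were compared with vehicle chronic cells to ask what the antioxidant changed under repeated stimulation. On the deposited scale 9 members were higher, 16 were lower and 15 were not called, against 38.5% of all genes higher and 22.6% lower. The median log2 change was -0.06, and that of all genes was 0.08. After rescaling the libraries to a common median, which moved the median of all genes from 0.08 to -0.02 and that of the members to -0.23, 3 members were higher and 25 lower. Of all genes called, 63.0% were higher on the deposited scale and 45.1% after rescaling. With only the compared groups in the fit 11 members were higher and 17 lower, and without the 3 libraries with raised low genes, which belong to other groups, 11 were higher and 16 lower. No member was called at 2-fold or more, against 5.87% of all genes higher and 3.42% lower. The libraries of 28 of the 40 members did not overlap between the groups, against 75.8% of all genes. In every setting run apart from the 2-fold threshold, the 3 genes Rfc1, Pold1 and Rpa2 were higher and 12 members were lower.

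Orc1 was the member that changed most, from 7.26, 7.72 and 6.98 RPKM in vehicle chronic to 3.44, 3.25 and 3.77 in NAC chronic libraries. The NAC mean was 47.6% of the vehicle mean, with no overlap (log2 change -0.89 ± 0.091, limma adjusted p = 4.9e-08). Rfc3 went from 41.4, 41.2 and 40.6 to 24.9, 28.8 and 28.6 RPKM (log2 change -0.57 ± 0.066, limma adjusted p = 3.2e-07). Orc1 and Rfc3 were thus lower in the NAC cells and higher in the polyclonal chronic ones, each against its own comparison group. Within the vehicle experiment both were already lower in vehicle chronic than in vehicle acute cells. The NAC cells therefore lay further below vehicle acute cells than vehicle chronic cells did. Tyms, the thymidylate synthase gene, fell by 0.42 on the log2 scale, Ccne2 by 0.37, Cdc6 by 0.32, Mcm2 by 0.30 and E2f1 by 0.27, and the libraries of these genes did not overlap. Ccne2 stood at 3.64, 3.33 and 3.87 RPKM in vehicle and 2.47, 2.82 and 2.40 in NAC libraries. Fen1 stood at 45.2, 45.7 and 42.9 RPKM in vehicle and 36.3, 38.3 and 39.2 in NAC libraries, again lower in all 3.

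Pold1 stood at 31.9, 31.5 and 33.2 RPKM in vehicle and 42.2, 39.2 and 39.6 in NAC libraries, which did not overlap (log2 change 0.32 ± 0.053, limma adjusted p = 3.5e-05). Rpa2 and Rfc1 rose by similar amounts, with log2 changes of 0.35 and 0.34. Subunits of 1 complex thus went opposite ways in the same cells. Rpa1 was lower (log2 change -0.14, limma adjusted p = 0.007) while Rpa2 was higher, and Rfc3 was lower while Rfc1 was higher, in both cases with and without rescaling. Mcm6 and Mcm7 were higher and Mcm2 and Mcm5 lower, but the rise of Mcm6 and Mcm7 was not called after rescaling (limma adjusted p = 0.22 in both). Pcna (log2 change 0.02), Pola1 (-0.03) and Rrm1 (0.01) were not called on the deposited scale. Single libraries decided several small calls: without vehicle chronic replicate 2, Cdt1, Mcm10, Prim1 and Rrm2 lost theirs (limma adjusted p = 0.064 to 0.076), and Gins1 lost its call without vehicle chronic replicate 3 or NAC replicate 1 or 2 (0.061 to 0.18). Mcm10 also lost its call without vehicle chronic replicate 3 or NAC replicate 2 or 3, Prim1 without vehicle chronic replicate 3 or NAC replicate 1, Rrm2 without vehicle chronic replicate 1 or NAC replicate 1 or 3, and Uhrf1 without vehicle chronic replicate 1 or 3 (limma adjusted p = 0.054 to 0.16). CD4 T cell genes summed to 74.9 to 76.8 RPKM in NAC and 19.4 to 22.4 in vehicle libraries, with all 4 higher. The CD8 T cell list summed to 2279 to 2327 and 1818 to 1831 RPKM (4 of 7 higher), the myeloid list to 30.8 to 32.3 and 8.94 to 9.64 (2 of 4 higher, Itgax at 26.4 and 7.52 RPKM and Itgam at 4.93 and 1.79) and the B cell list to 10.1 to 11.4 and 3.18 to 4.50 (2 of 7 higher). The NK cell list summed to 7.35 to 7.82 and 10.6 to 11.1 RPKM, with 1 of 2 lower. The part of these lists in the result was not tested.

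Set against vehicle acute cells, NAC chronic cells were lower in all 40 members, with a median log2 change of -0.87, where 29.9% of all genes were lower and 36.3% higher. This comparison shares its libraries with those above and repeats the same acute reference. Orc1 was the furthest below, at 27.4% of the vehicle acute mean (log2 change -1.61 ± 0.091, limma adjusted p = 3.7e-12). The smallest fall was that of Rfc2, with a log2 change of -0.28. All 40 had libraries that did not overlap, against 77.9% of all genes. At 2-fold or more 17 were lower, against 4.69% of all genes lower and 8.39% higher.

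The 6 MCM2-7 subunits form a ring with 1 copy each, and their transcripts kept no fixed proportion across groups. Mcm2 made up 23.7% ± 0.31 (SD, n = 3) of their summed RPKM in OT-I acute cells and 10.7% to 15.7% in the other groups. Mcm6 made up 24.5% ± 0.29 in polyclonal chronic and 22.8% ± 0.38 in NAC chronic cells, and 17.3% to 19.6% elsewhere. The sum itself ranged from 288 ± 8.3 RPKM in OT-I acute to 702 ± 11.6 in vehicle acute cells. Whether the high Mcm2 share in OT-I acute libraries came with the melanoma RNA was not tested.

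Genes beside the 40 were described from fixed lists. Over all genes tested, 35.5% were called lower and 28.6% higher in polyclonal chronic cells. In OT-I chronic cells these shares were 36.2% and 22.4%, in vehicle chronic cells 34.4% and 24.5%, and with NAC 22.6% and 38.5%. After rescaling, 3518 of the 12630 genes were lower and 3460 higher in OT-I chronic cells, and 4114 lower and 3380 higher with NAC. The counts of every list below are to be read beside these shares. The 20 mitosis genes, which act after DNA has been copied, had medians that lay apart from those of the replication genes. All 20 were lower in polyclonal chronic cells with a median log2 change of -0.90, against -0.25 for the replication genes. In OT-I chronic cells 12 were lower and 3 higher, with a median of -0.16 against 0.43 (after rescaling, 7 lower and 5 higher, median -0.08). In vehicle chronic cells all 20 were lower (median -1.09). In NAC cells 17 of the 20 rose and 3 were not called, with a median of 0.51 against -0.06 for the replication genes, and after rescaling 15 were higher and 1 lower (median 0.33). Ccnb2, the cyclin B2 gene of mitotic entry, averaged 119 RPKM in polyclonal acute and 38.5 in polyclonal chronic cells, and 54.3 in vehicle chronic and 98.4 in NAC cells. The share of reads on the mitosis list was 0.455% ± 0.0042 in NAC chronic and 0.321% ± 0.00064 in vehicle chronic cells, while the shares on the replication genes were 0.372% and 0.376%. These figures describe each list beside the other, and the difference between the lists was not tested.

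**Figure D4:**
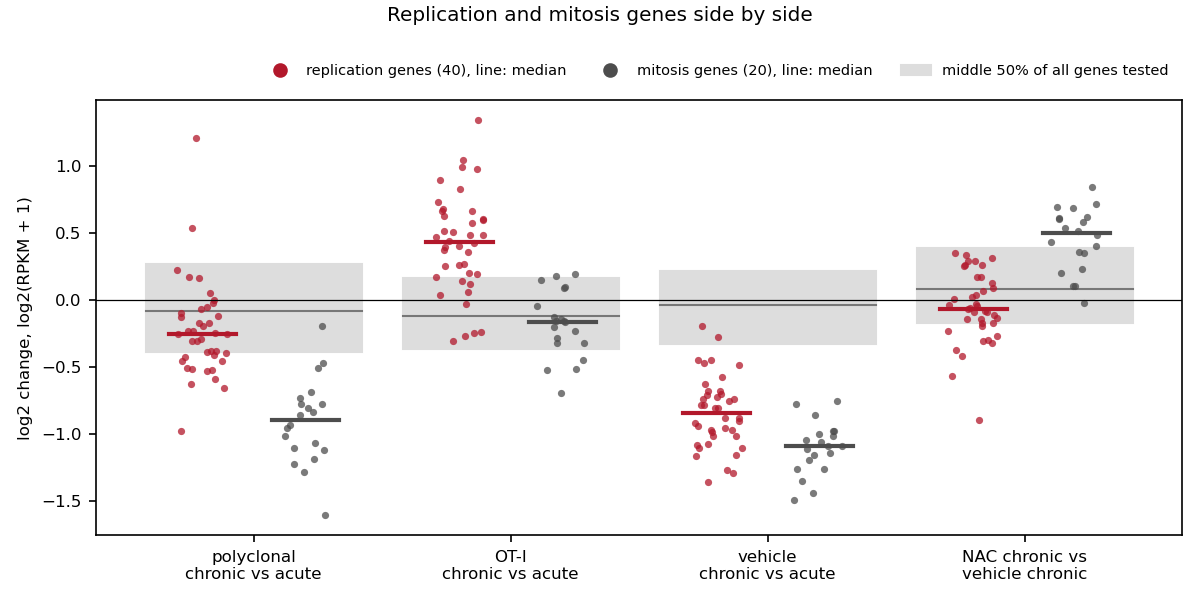
Log2 change (y axis, on the log2(RPKM + 1) scale) of the 40 replication genes and the 20 mitosis genes in 4 comparisons, with 1 point per gene, thick lines for the medians and grey boxes for the middle 50% of all genes tested. The replication median is above the mitosis median in the 3 chronic against acute comparisons (-0.25 and -0.90, 0.43 and -0.16, -0.84 and -1.09) and below it in the NAC comparison (-0.06 and 0.51).

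The 34 further replication factors, such as the remaining origin recognition subunits and checkpoint mediators, followed the members in part. In polyclonal chronic cells 20 were lower and 7 higher (16 and 5 with the polyclonal libraries fitted alone), in OT-I chronic cells 10 were lower and 14 higher, and in vehicle chronic cells 29 were lower and 1 higher. The 1 higher gene was Pold4, a small subunit of polymerase delta, at 8.64 RPKM in vehicle acute and 14.3 in vehicle chronic cells. It was higher still with NAC, at 30.4 RPKM (log2 change 1.04 ± 0.089, limma adjusted p = 3.8e-09). In NAC cells 13 of the 34 were higher and 6 lower, where 38.5% of all genes were higher and 22.6% lower. After rescaling 4 of the 34 were higher and 11 lower. Rnaseh2b, a subunit of the nuclease that removes ribonucleotides from DNA, fell the most in polyclonal (33.1 to 17.4 RPKM) and vehicle chronic cells (52.5 to 17.95). Of the 9 genes of chromatin assembly at the fork, 6 were lower in polyclonal and all 9 in vehicle chronic cells, and 6 were higher and 1 lower in OT-I chronic cells. In NAC cells 5 of them were higher and 3 lower, and after rescaling 1 was higher and 3 lower. Dnmt1, the maintenance DNA methyltransferase, averaged 71.6 and 46.7 RPKM in polyclonal acute and chronic, 36.2 and 51.2 in OT-I acute and chronic, and 107 and 50.0 in vehicle acute and chronic cells.

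The 11 other nucleotide supply genes split. In polyclonal chronic cells 6 were lower and 3 higher, in OT-I chronic cells 4 and 7, and in vehicle chronic cells 8 and 1. Samhd1, which degrades deoxynucleotides, averaged 149 RPKM in vehicle acute, 34.9 in vehicle chronic and 97.3 in NAC chronic cells, and the change with NAC was 1.45 ± 0.045 on the log2 scale (limma adjusted p = 6.1e-16). Dck, the deoxycytidine kinase of the salvage pathway, averaged 55.6, 21.1 and 45.2 RPKM in the same groups. In OT-I cells Shmt1, a folate enzyme, rose from 8.99 to 25.9 RPKM. With NAC 4 of the 11 genes were higher and 4 lower, against 38.5% and 22.6% of all genes. After rescaling 4 were higher and 5 lower.

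Regulators of the G1/S border moved in both directions. Of 15 activators, 9 were higher and 3 lower in polyclonal chronic, 8 and 3 in OT-I chronic, and 2 and 11 in vehicle chronic cells. Ccnd2, the cyclin D2 gene, averaged 67.5 RPKM in polyclonal acute and 323 in polyclonal chronic cells (log2 change 2.25 ± 0.060, limma adjusted p = 1.8e-17). Ccna2, the S phase cyclin, fell there from 99.6 to 44.6 RPKM. Cdk2, the partner of cyclins E and A, averaged 172 RPKM in OT-I acute and 64.3 in OT-I chronic cells, and 24.0 to 37.9 in the other groups. Cdk2 overlaps the melanocyte gene Pmel by 837 bases on the opposite strand in GRCm38, and Pmel averaged 2013 RPKM in OT-I acute and 679.5 in OT-I chronic libraries, so the Cdk2 values there are uncertain. E2f2 averaged 37.5 RPKM in vehicle acute, 12.7 in vehicle chronic and 29.1 in NAC chronic cells. With NAC 6 activators were higher and 6 lower, against 38.5% and 22.6% of all genes. After rescaling 4 were higher and 8 lower.

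Among the 14 inhibitors tested, 4 were higher and 8 lower in polyclonal chronic, 5 and 6 in OT-I chronic, and 2 and 10 in vehicle chronic cells. Cdkn1a, which encodes a broad CDK inhibitor, averaged 56.4 RPKM in polyclonal acute and 211 in polyclonal chronic cells. With NAC it fell by 1.22 on the log2 scale, from 132 to 56.1 RPKM. Cdkn2c went the other way in both cases, from 46.0 to 11.9 RPKM in polyclonal chronic cells and from 16.4 to 38.1 with NAC. Cdkn2a, a cell cycle inhibitor locus, averaged 64.7 RPKM in vehicle acute, 15.9 in vehicle chronic and 2.72 in NAC chronic cells. With NAC 6 inhibitors were higher and 5 lower, against 38.5% and 22.6% of all genes. After rescaling 4 were higher and 5 lower.

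The promoter matches were finally set beside the changes. Members with an E2F match in the window had a median log2 change of -0.24 in polyclonal chronic cells, and the 19 without one had -0.25. In OT-I chronic cells the medians were 0.47 and 0.36, in vehicle chronic cells -0.97 and -0.80, and with NAC -0.03 and -0.09. The medians of matched and unmatched members had the same sign in each comparison. They are given without their spread, and no test of this split was made. The CCAAT box (CCAAT on either strand) was present in 20 of the 32 members with a window (62.5%). It was present in 42.8% of table genes with a window and in 15 of 17 such mitosis genes (88.2%). The cell cycle homology region, searched as TTTGAA or TTCGAA on either strand, was present in 6 of the 32 (18.8%). It was present in 16.5% of table genes with a window and in 13 of the 17 mitosis genes (76.5%). A missing match says only that these letters are not in this window.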

How the data were processed

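Poly(A) RNA of 21 mouse libraries was extracted with Trizol and prepared with a NEBNext Ultra kit, per the labels' protocols. The authors deposited 1 table of RPKM values for 13202 genes. Per the submitters' processing notes, bcl2fastq 2.17, HTSeq and edgeR were used with the build mm9, without their roles. Not given in the sources used here are the aligner, the annotation, any gene filter and the strand setting. Groups came from the labels. Because RPKM divides by the reads in genes, a few very abundant genes can shift all others, and rescaling each library to a common median was tried for that reason.

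The pseudocount was 1, giving log2(RPKM + 1), and the 12630 genes that reached RPKM 1 in 3 or more libraries were tested. All 21 libraries entered 1 limma fit (version 3.58.1, R 4.3.3) with a mean per group, 14 residual degrees of freedom and an empirical Bayes trend. A call was a two-sided p under 0.05 after Benjamini-Hochberg adjustment over every gene tested. Contrasts were chronic against acute in the 3 experiments, NAC chronic against vehicle chronic and against vehicle acute, and the 3 differences between chronic effects. Tested on simulated data with the library depths of the polyclonal groups, the pooled spread made too many calls among low genes, so counts from the polyclonal libraries alone are given beside that result.

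Whole reads were recovered from the RPKM for 100% of genes within 0.001 reads, giving depths of 5347355 to 25218890 reads, and limma's voom was run on them. All 21 pairs of libraries within groups differed by more than counting noise, with 1.52 to 54.6 as their chi-square per gene. Each library counted as 1 replicate, although this spread may be technical and does not show that the libraries came from separate cultures. Same-numbered polyclonal libraries deviated together across genes (r of 0.446, 0.629 and 0.168). Differently numbered ones ranged from -0.63 (acute 1 with chronic 2) to 0.569 (acute 1 with chronic 3). These are properties of the values, and the labels mention no pairing by number. The fit with the replicate number as a block was run as an alternative. Further settings were pseudocount 0.1, an RPKM filter of 5 or none, the median rescaling, a fit of only the compared groups, a 2-fold threshold, and each library left out in turn. The fit without 3 libraries was added after seeing the data.

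Members, gene lists, markers and the rule for named genes were chosen with earlier results of these data known. In each role the 2 members with the largest absolute log2 change over 4 comparisons were described library by library, with Mcm2, Pcna, Rrm2, Cdc6, Ccne1, E2f1 and Uhrf1, and further genes were named from lists, up to 3 per list and comparison by largest change. Others, such as Dnmt1, Rpa2 and the exceptions in a count, were named after their values were seen. Lists of CD8 T cell, CD4 T cell, B cell, myeloid, NK cell, erythroid and melanocyte markers were read for each library. Myeloid, NK cell and erythroid lists were summed from 4, 2 and 1 genes of the table, and their highest sums were 32.3, 24.1 and 3.31 RPKM. Promoter windows were read from RefSeq for GRCm38.p6, not the build of the table, so no coordinate is given for expression values. Gene overlaps were read from GENCODE for GRCm38.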

Additional observations from a re-analysis of the deposited data

Results flagged for a closer look

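The change from acute to chronic cells in the replication genes differed between experiments, by a test of the difference of the 2 changes in limma. Each change is set against its own acute group, and these groups were unlike. The members took 0.718% of reads in vehicle acute, 0.434% in polyclonal acute and 0.288% in OT-I acute cells. In the chronic groups they took 0.358% to 0.388%. The change was more positive in OT-I than in polyclonal cells for 34 of the 40 members, and more negative for 1 (Rfc3), with a median difference of 0.71. Of all genes, 26.6% were more positive and 29.2% more negative there. It was more negative in vehicle-treated than in polyclonal cells for 36, with a median difference of -0.60, against 27.3% of all genes (25.1% more positive). It was more positive in OT-I than in vehicle-treated cells for 40 of 40, with a median difference of 1.26, against 27.4% of all genes (31.1% more negative). The largest of the differences between OT-I and vehicle cells was that of Rrm2 (2.10 ± 0.060), followed by Orc1 (2.07 ± 0.13) and Uhrf1 (2.05 ± 0.070). The 12 melanocyte genes summed to 4655 to 8269 RPKM in the OT-I libraries and to at most 81.4 RPKM in the others, and their part in these differences was not tested.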

How the results depend on the processing

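With the 2-fold threshold the members called fell to 1 higher and 0 lower (polyclonal), 2 and 0 (OT-I), 11 lower (vehicle), 0 and 0 (NAC against vehicle chronic) and 17 lower (NAC chronic against vehicle acute), and the differences to 8 above and 1 below (OT-I against polyclonal), 2 below (vehicle against polyclonal) and 29 above (OT-I against vehicle). Of all genes, the shares higher and lower at 2-fold were 7.36% and 5.73% (polyclonal), 2.91% and 2.79% (OT-I), and 5.9% and 4.71% (vehicle). They were 5.87% and 3.42% (NAC against vehicle chronic) and 8.39% and 4.69% (NAC chronic against vehicle acute). For the differences, the shares above and below were 5.46% and 8.84%, 5.8% and 6.56%, and 6.48% and 8.25%, in the order given. The 2-fold threshold asks for more by construction. Rescaling to a common median gave 2 lower in OT-I cells, and 3 higher and 25 lower with NAC. This rescaling lowers the NAC changes of all genes together, and with it Rrm1 went from 0.01 to -0.16 (limma adjusted p = 0.011), while Gins3, Gins4, Pcna, Rfc4 and Rfc5 also took a negative sign and were called on neither scale. Rescaling also moved the calls over all genes from 2827 higher and 4568 lower to 3460 and 3518 (OT-I), from 4862 and 2854 to 3380 and 4114 (NAC against vehicle chronic), and from 4587 and 3781 to 3610 and 4802 (NAC chronic against vehicle acute).

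The replicate block gave 2 members below in the OT-I against polyclonal difference, and otherwise the same counts of members as the fit without it (4 and 27, 33 and 4, 40 lower, 9 and 16). Leaving out each library in turn gave 3 to 5 higher and 26 to 28 lower (polyclonal), 30 to 32 and 4 (OT-I), 40 lower (vehicle), 8 to 9 and 13 to 15 (NAC against vehicle chronic), 40 lower (NAC chronic against vehicle acute), 34 to 36 above and 1 to 3 below (OT-I against polyclonal), 36 to 37 below (vehicle against polyclonal) and 40 above (OT-I against vehicle). The count of 1 became 2 without polyclonal chronic replicate 2, and 3 without OT-I acute replicate 3 or without the 3 libraries with raised low genes. Over all members and all settings apart from the 2-fold threshold, 53 single-member values lost a call and 35 gained one. Another 28 had a sign other than in the reported fit, of which 27 were called in neither fit and 1 was the Rrm1 value above. Precision is limited by 3 libraries per group and, for the lowest members, by 55 reads or more per library.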
